A study of Mus musculus with 9 samples.

Results

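Insulin signalling and the traffic of the insulin-responsive glucose transporter were followed here through 9 genes, taken by symbol from the 55359 genes of the count table: Insr, Irs1, Irs2, Pik3r1, Akt1, Akt2, Foxo1, Trarg1 and Tbc1d4. Each symbol matched 1 gene identifier, and all 9 passed the filter on low counts that kept 14649 genes. The cells were adipocyte precursors from mouse inguinal white adipose tissue, the main subcutaneous fat pad used for studies of beige adipocytes, which are fat cells with inducible thermogenic genes. Non-induced precursors (day 0) and cells at day 4 and day 8 of beige differentiation were sampled, with 3 RNA-seq libraries per day. For the first 2 days of differentiation the medium held 5 µg/mL insulin, 2 µg/mL dexamethasone (a glucocorticoid), 0.5 mmol/L IBMX (which raises cyclic AMP), 125 µmol/L indomethacin, 1 µmol/L triiodothyronine (a thyroid hormone) and 0.5 µmol/L rosiglitazone (a PPARγ agonist). Dexamethasone, IBMX and indomethacin were then left out of the maintenance medium, so the day 4 and day 8 cells still had insulin, triiodothyronine and rosiglitazone. The composition of the day 0 medium was not given in the sources used here, nor were the strain, sex and age of the mice. Whether the 3 libraries of a day represent separate cultures or animals was not stated in the labels; p-values then reflect only the spread between libraries, which may be technical.

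Insulin binds a receptor tyrosine kinase that phosphorylates docking proteins, which in turn recruit phosphoinositide 3-kinase through its regulatory subunits. The lipid made by that kinase brings AKT to the plasma membrane, where AKT is activated and phosphorylates, among others, the transcription factor FOXO1 and the Rab GTPase-activating protein TBC1D4. In fat cells this releases vesicles carrying the glucose transporter GLUT4, the product of Slc2a4, to the cell surface. The libraries measured RNA, so neither phosphorylation nor vesicle movement was observed.

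Libraries held between 26387408 and 31474490 counted reads. Levels below are counts per 1000000 reads (CPM) after TMM scaling, a correction for differences in library composition, and fold changes are log2 values from 1 edgeR fit across all genes, called at an adjusted p under 0.05. In these bulk libraries, fewer cells of a type and less RNA per cell cannot be told apart. The 8 adipocyte markers (Adipoq, Fabp4, Plin1, Cidec, Lipe, Pparg, Retn and Cfd) summed to between 24.3 and 49.6 CPM at day 0, with 3 of the 8 at 0, to between 19967 and 37722 CPM at day 4 and to between 27482 and 29893 CPM at day 8. The 6 thermogenic markers summed to between 1.57 and 1.64 CPM at day 0, between 208 and 526 CPM at day 4 and between 1004 and 2179 CPM at day 8. Markers of other cells the fat pad holds summed to at most 88.9 CPM for macrophages, 15.5 CPM for endothelium, 45.0 CPM for mural cells and 36.0 CPM for skeletal muscle (nearly all Acta1) in any library, and lymphocyte and mammary epithelial markers to at most 0.108 and 0.651 CPM. One library stood apart from its day: replicate 2 of day 4 lay at 13.7 on the first principal component, against 84.6 and 69.5 for the other day 4 libraries, with the lowest adipocyte marker sum of that day. Its sum of 8 preadipocyte and fibroblast markers (Pdgfra, Pdgfrb, Dlk1, Cd34, Ly6a, Dpp4, Thy1 and Dcn) was 2299 CPM. The sum was 1149 and 1310 CPM in the other day 4 libraries and between 2679 and 3102 CPM at day 0. These markers did not move together: of 7 tested, 3 were called higher and 3 lower at day 4 than at day 0. The sum is therefore not a uniform measure of precursor state. Because replicate 2 of day 4 stood apart, fold changes that include day 4 are given with and without it.

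Of the 9 genes, 7 were higher and 1 lower at day 4 than at day 0, and 6 were higher and 2 lower at day 8 than at day 0. These counts stand against a transcriptome in which 54.6% of tested genes were called at day 4 (28.6% higher and 26% lower) and 63.4% at day 8 (33.5% higher and 29.9% lower). The libraries of the 2 days did not overlap for 8 of the 9 genes at day 4 and for 8 at day 8, each against day 0, beside 65.8% and 72.7% of all genes tested. The median log2 fold change of the 9 genes was 1.27 at day 4 and 1.35 at day 8, beside −0.01 and 0.03 over all genes tested. Between day 8 and day 4, 3 of the 9 were called, with a background of 22.4% (11.7% higher and 10.8% lower): Trarg1 was higher at day 8, and Irs2 and Pik3r1 were lower. Libraries of day 8 and day 4 did not overlap for 4 of the 9 genes, these 3 and Akt2, beside 37% of all genes tested. The number called was 5 without replicate 2 of day 4, when Foxo1 and Tbc1d4 were also lower at day 8. It ranged from 2 to 5 when single libraries were left out.

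**Figure D1:**
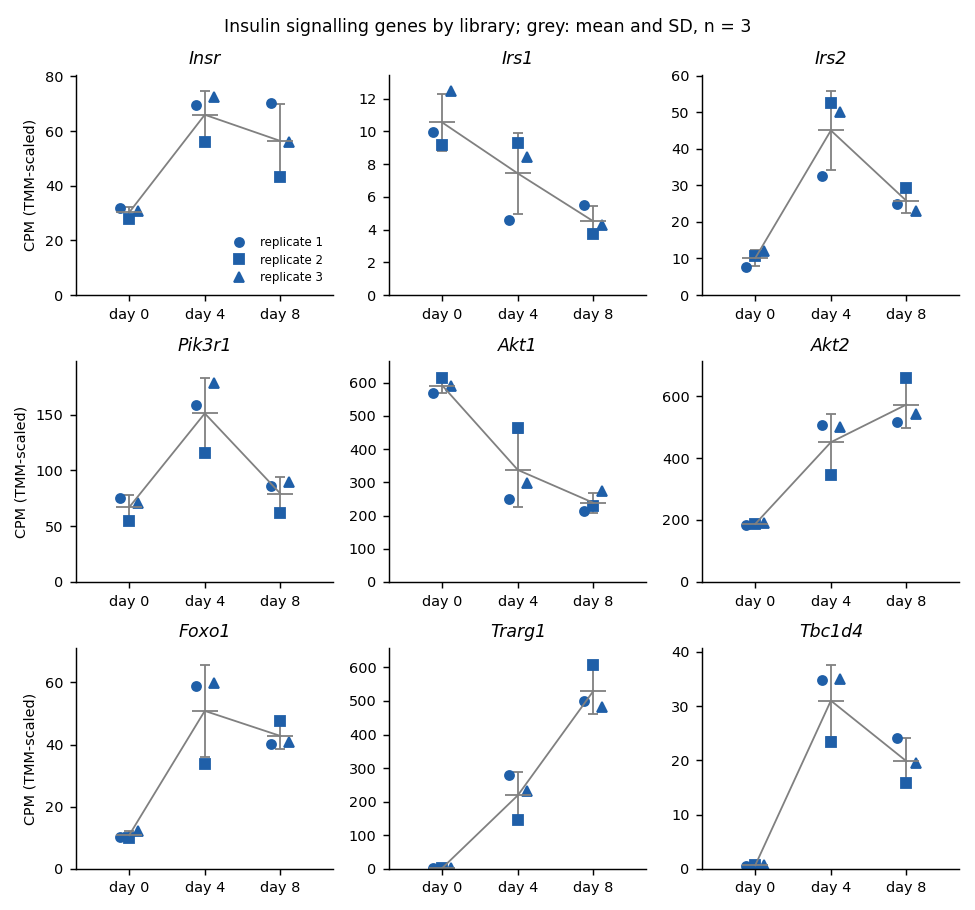
Level of each of the 9 genes by day of differentiation, in TMM-scaled CPM on linear axes that start at 0; symbols are single libraries (circle, replicate 1; square, replicate 2; triangle, replicate 3), and grey bars and lines give the mean and SD of 3 libraries. Trarg1 and Tbc1d4 lie near 0 at day 0, Irs2 and Pik3r1 are highest at day 4, and Akt1 is lower in every library of both later days than at day 0.

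Insr, the insulin receptor, was higher in the differentiating cells. It measured 32.0, 27.8 and 30.8 CPM at day 0, 69.6, 56.0 and 72.3 CPM at day 4 and 70.1, 43.0 and 56.0 CPM at day 8. All libraries of both later days were above all libraries of day 0, while day 4 and day 8 overlapped. Its log2 fold change was 1.13 ± 0.18 (SE) at day 4 against day 0 (adjusted p = 0.00045, edgeR; 1.23 without replicate 2 of day 4) and 0.90 ± 0.18 at day 8 against day 0 (adjusted p = 0.00136, edgeR). Day 8 and day 4 differed by −0.23, which did not pass the test (adjusted p = 0.382, edgeR; −0.38 without replicate 2 of day 4).

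The insulin receptor docking proteins IRS1 and IRS2 are products of paralogous genes, and their RNAs went opposite ways between day 0 and day 8. Irs1 had 9.97, 9.20 and 12.5 CPM at day 0, 4.59, 9.29 and 8.43 CPM at day 4 and 5.52, 3.73 and 4.28 CPM at day 8. The day 8 libraries were all below the day 0 libraries, and day 4 overlapped both other days. Irs1 fell by 1.23 ± 0.28 on the log2 scale at day 8 against day 0 (adjusted p = 0.00297, edgeR). At day 4 against day 0 its log2 difference was −0.50 ± 0.27, which did not pass the test (adjusted p = 0.143, edgeR; −0.69 without replicate 2 of day 4, adjusted p = 0.055), although it passed with libraries scaled by total counts (−0.81, adjusted p = 0.0394). At day 8 against day 4 the log2 difference was −0.72 (adjusted p = 0.0865, edgeR), with −0.97 and an adjusted p of 0.0139 without replicate 1 of day 4 and −0.58 without replicate 2 of day 4, and DESeq2 called it at an adjusted p of 0.0452.

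Irs2 had 7.66, 10.6 and 12.1 CPM at day 0, 32.6, 52.4 and 50.0 CPM at day 4 and 24.9, 29.3 and 23.0 CPM at day 8. The 3 days did not overlap, and day 4 was the highest. Its log2 fold change was 2.16 ± 0.23 at day 4 against day 0 (adjusted p = 2.41e-05, edgeR; 2.03 without replicate 2 of day 4) and 1.35 ± 0.22 at day 8 against day 0 (adjusted p = 0.000378, edgeR). Irs2 fell by 0.81 at day 8 against day 4 (adjusted p = 0.0249, edgeR), a call kept without replicate 2 of day 4 (−0.74) and lost without replicate 3 of day 4 (adjusted p = 0.0827), replicate 1 of day 8 (adjusted p = 0.0745) or replicate 3 of day 8 (adjusted p = 0.0753).

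The ratio of Irs2 to Irs1 counts within a library needs no scaling between libraries. It was 0.768, 1.15 and 0.967 at day 0, 7.07, 5.63 and 5.92 at day 4 and 4.50, 7.83 and 5.35 at day 8. No day 4 or day 8 library came within the day 0 range. The geometric mean of the ratio was 6.05-fold higher at day 8 than at day 0, a log2 difference of 2.60. It was 6.51-fold higher at day 4 than at day 0 (6.82-fold without replicate 2 of day 4). With 3 libraries against 3, the two-sided exact permutation p of both was 0.1, the smallest this design allows (0.15 adjusted over 6 ratio comparisons). Day 8 and day 4 differed by −0.11 on the log2 scale (exact permutation p = 0.8), or by −0.17 without replicate 2 of day 4. Irs1 shares 30.9% of its exon bases with Gm9747 on the opposite strand in GENCODE M21, and Irs2 shares 2.56% with 9530052E02Rik. No source used here gave the strand setting of the counting, and reads of these partners cannot be told apart from those of Irs1 and Irs2.

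The sequences before the transcription starts of this pair are shown because the paralogs differ in direction. They are the 250 bases before the start in RefSeq on build GRCm38.p6, not the build of the counts, written 5′ to 3′ on the gene's strand, with Irs1 at chr1:82291440-82291689 and Irs2 at chr8:11008930-11009179, both on the minus strand. Capitals mark matches, on either strand, to any of 5 motifs: AGGTCA repeated after 1 spacer base (the direct repeat bound by PPAR and RXR), AGGTCA alone (the element of many nuclear receptors, contained in the first), GTAAACA (a FOXO site), TTGCGCAA (a C/EBP palindrome) and GGGCGG (a GC box). A match is a string of letters and was not tested for binding.
Irs1: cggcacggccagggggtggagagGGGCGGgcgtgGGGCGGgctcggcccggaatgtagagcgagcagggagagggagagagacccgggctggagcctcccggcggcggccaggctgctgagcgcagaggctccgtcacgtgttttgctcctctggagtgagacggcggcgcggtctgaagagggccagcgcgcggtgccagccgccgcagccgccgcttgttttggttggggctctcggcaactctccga
Irs2: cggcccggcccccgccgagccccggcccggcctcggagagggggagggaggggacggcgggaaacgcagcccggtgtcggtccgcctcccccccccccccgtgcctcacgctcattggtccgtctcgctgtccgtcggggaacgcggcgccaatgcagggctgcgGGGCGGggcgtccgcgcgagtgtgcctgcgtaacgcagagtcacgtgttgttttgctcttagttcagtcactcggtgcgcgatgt

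Irs1 held 2 GC boxes, 227 and 216 bases before the start, and Irs2 held 1, 85 bases before it. Neither held any of the other 4 motifs. A GC box is found in 32.7% of the 32851 mouse promoter windows of the same length, AGGTCA in 14%, GTAAACA in 3.17%, TTGCGCAA in 0.164% and the direct repeat in 0.0335%. The GC content was 72.4% for Irs1 and 72.8% for Irs2, beside a median of 52.4% over all windows. Insr and Trarg1 had no entry in the promoter table.

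Pik3r1 encodes the main regulatory subunits of class I phosphoinositide 3-kinase, which bind phosphorylated docking proteins. Its level was highest at day 4: 75.5, 54.8 and 70.5 CPM at day 0, 159, 116 and 179 CPM at day 4 and 86.0, 61.7 and 90.0 CPM at day 8. The day 4 libraries were above all others, and day 8 overlapped day 0. Pik3r1 had a log2 fold change of 1.18 ± 0.20 at day 4 against day 0 (adjusted p = 0.000738, edgeR; 1.33 without replicate 2 of day 4) and −0.93 at day 8 against day 4 (adjusted p = 0.0105, edgeR; −1.14 without that library). Day 8 against day 0 gave 0.24 ± 0.20, which did not pass the test (adjusted p = 0.312, edgeR), and −0.11 with libraries scaled by total counts.

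The kinases Akt1 and Akt2 changed in opposite directions, and both are abundant RNAs in these cells. Akt1 is the broadly expressed isoform, and Akt2 is the isoform that mouse knockouts tied to insulin-stimulated glucose disposal. Akt1 had 569.9, 615 and 590.0 CPM at day 0, 250.5, 464 and 297 CPM at day 4 and 213, 229 and 273 CPM at day 8. Every day 0 library was above every later one, and the highest of the later libraries was replicate 2 of day 4. Akt1 fell by 0.81 ± 0.22 on the log2 scale at day 4 against day 0 (adjusted p = 0.00875, edgeR; −1.11 without replicate 2 of day 4) and by 1.31 ± 0.22 at day 8 against day 0 (adjusted p = 0.000396, edgeR). Day 8 against day 4 gave −0.50 (adjusted p = 0.114, edgeR), or −0.25 without replicate 2 of day 4 (adjusted p = 0.215) and −0.68 without replicate 1 of day 4 (adjusted p = 0.0327).

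Akt2 had 183, 188 and 190.4 CPM at day 0, 507, 345 and 502 CPM at day 4 and 517, 660 and 542 CPM at day 8. The 3 days did not overlap, and the lowest of the later libraries was again replicate 2 of day 4. The log2 fold change was 1.27 ± 0.18 at day 4 against day 0 (adjusted p = 0.000169, edgeR; 1.43 without replicate 2 of day 4) and 1.61 ± 0.18 at day 8 against day 0 (adjusted p = 2.8e-05, edgeR). The difference between day 8 and day 4, 0.34, did not pass the test (adjusted p = 0.175, edgeR; 0.13 without replicate 2 of day 4).

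Within a library, Akt2 counts were 0.321, 0.306 and 0.323 of Akt1 counts at day 0, 2.02, 0.742 and 1.69 of them at day 4 and 2.43, 2.88 and 1.99 of them at day 8. The day 0 libraries were the lowest, and replicate 2 of day 4 lay between them and all other later libraries. The geometric mean of the ratio was 7.59-fold higher at day 8 than at day 0, a log2 difference of 2.92. It was 4.31-fold higher at day 4 than at day 0 (5.84-fold without replicate 2 of day 4). The two-sided exact permutation p of each was 0.1, the smallest possible (0.15 adjusted over 6 ratio comparisons). Day 8 against day 4 gave a log2 difference of 0.82 (exact permutation p = 0.2), or 0.38 without replicate 2 of day 4. Counted per kilobase of exon (4.10 kb for Akt1 and 7.13 kb for Akt2 in GENCODE M21), Akt2 made up 15.0% to 15.6% of the pair at day 0, 29.9% to 53.8% at day 4 and 53.3% to 62.3% at day 8, so that its level per kilobase was the higher of the pair in all 3 libraries of day 8.

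The upstream sequences of this pair are shown for the same reason, in the same form. Akt1 has 2 starts in the RefSeq table, with the windows at chr12:112674885-112675134 (upstream start) and chr12:112674277-112674526 (downstream start), both on the minus strand, and the first of 4 Akt2 starts lies at chr7:27591302-27591551 on the plus strand.
Akt1 upstream start: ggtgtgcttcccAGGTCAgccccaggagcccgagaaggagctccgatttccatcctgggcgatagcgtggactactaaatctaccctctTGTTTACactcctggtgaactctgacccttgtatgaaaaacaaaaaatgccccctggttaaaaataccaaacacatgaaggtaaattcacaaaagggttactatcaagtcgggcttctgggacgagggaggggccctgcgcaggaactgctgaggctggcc
Akt1 downstream start: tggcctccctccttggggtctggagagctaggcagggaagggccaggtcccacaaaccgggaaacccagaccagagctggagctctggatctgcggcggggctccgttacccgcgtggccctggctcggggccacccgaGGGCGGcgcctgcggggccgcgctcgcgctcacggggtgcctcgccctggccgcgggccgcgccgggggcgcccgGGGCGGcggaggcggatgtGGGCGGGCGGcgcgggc
Akt2 first start: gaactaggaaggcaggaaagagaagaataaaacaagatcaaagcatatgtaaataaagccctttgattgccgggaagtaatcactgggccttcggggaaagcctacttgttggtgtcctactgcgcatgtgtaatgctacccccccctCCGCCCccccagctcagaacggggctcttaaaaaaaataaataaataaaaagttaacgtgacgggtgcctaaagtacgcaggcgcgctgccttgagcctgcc

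The window before the upstream Akt1 start held AGGTCA 238 bases before it and, on the opposite strand, GTAAACA 161 bases before it. The window before the downstream start held 4 GC boxes, which lie within 111 bases of it and of which the last 2 overlap. The Akt2 window held 1 GC box, on the opposite strand, 102 bases before the start. GC content was 52% and 78.4% for the Akt1 windows and 48.8% for the Akt2 window. The counts are per gene and do not say which start was used.

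Foxo1, the transcription factor that AKT keeps out of the nucleus, was higher in the differentiating cells. It had 10.2, 10.0 and 12.2 CPM at day 0, 59.0, 33.6 and 59.9 CPM at day 4 and 40.0, 47.6 and 40.7 CPM at day 8. Day 0 was below every later library, and day 4 and day 8 overlapped through replicate 2 of day 4. The log2 fold change was 2.23 ± 0.22 at day 4 against day 0 (adjusted p = 1.51e-05, edgeR; 2.46 without replicate 2 of day 4) and 1.98 ± 0.22 at day 8 against day 0 (adjusted p = 2.61e-05, edgeR). Day 8 against day 4 gave −0.25 (adjusted p = 0.406, edgeR), and −0.53 without replicate 2 of day 4, which then passed (adjusted p = 0.0169). In GENCODE M21, 7.78% of Foxo1 exon bases overlap the antisense gene Gm20402, with the same limit on strand as above.

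The genes of glucose transporter traffic had the largest changes against day 0 among the 9. Trarg1 encodes a protein of GLUT4 vesicles that regulates GLUT4 trafficking in fat cells. It had 2.64, 2.49 and 1.09 CPM at day 0, 279, 145 and 233 CPM at day 4 and 499.9, 608 and 482 CPM at day 8. The 3 days did not overlap, and the levels were ordered by day. The log2 fold change was 6.72 ± 0.38 at day 4 against day 0 (adjusted p = 4.23e-07, edgeR; 6.94 without replicate 2 of day 4) and 7.99 ± 0.40 at day 8 against day 0 (adjusted p = 2.51e-07, edgeR), a 255-fold difference. Day 8 was also higher than day 4, by 1.28 (adjusted p = 0.0133, edgeR; 1.00 without replicate 2 of day 4).

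Tbc1d4 encodes the Rab GTPase-activating protein AS160, which retains GLUT4 vesicles inside the cell until AKT phosphorylates it. It had 0.485, 0.777 and 0.680 CPM at day 0, 34.8, 23.3 and 34.9 CPM at day 4 and 24.2, 15.8 and 19.5 CPM at day 8. Day 0 was far below the later days, which overlapped through replicate 2 of day 4. The log2 fold change was 5.58 ± 0.28 at day 4 against day 0 (adjusted p = 2.36e-07, edgeR; 5.75 without replicate 2 of day 4) and 4.94 ± 0.28 at day 8 against day 0 (adjusted p = 4.36e-07, edgeR). Day 8 against day 4 gave −0.64, short of the threshold (adjusted p = 0.0565, edgeR), and it passed with DESeq2 (−0.66, adjusted p = 0.0335), when genes of low count were kept (−0.64, adjusted p = 0.0439), without replicate 2 of day 4 (−0.86, adjusted p = 0.0107) and without replicate 1 of day 8 (−0.81, adjusted p = 0.0492). Its upstream window is shown as that of the strongest riser with an entry in the table, at chr14:101609192-101609441 on the minus strand; it held 1 GC box, 23 bases before the start, none of the other 4 motifs, and 54.8% GC.
Tbc1d4: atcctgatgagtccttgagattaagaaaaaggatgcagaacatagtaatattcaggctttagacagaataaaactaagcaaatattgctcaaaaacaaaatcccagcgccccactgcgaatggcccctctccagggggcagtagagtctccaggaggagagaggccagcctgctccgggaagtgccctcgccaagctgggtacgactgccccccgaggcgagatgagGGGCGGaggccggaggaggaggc

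**Figure D2:**
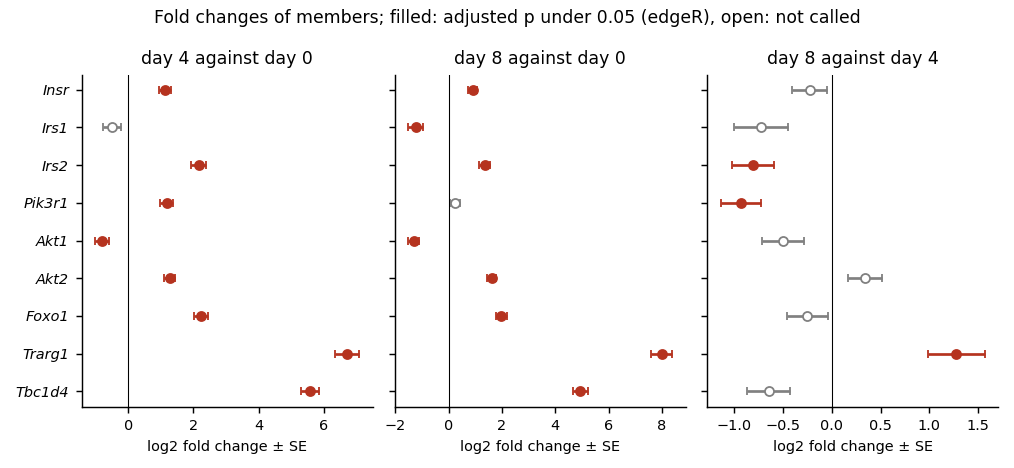
Log2 fold change of each of the 9 genes with its standard error, in 3 panels for day 4 against day 0, day 8 over day 0 and day 8 over day 4, each with its own axis; filled symbols mark an adjusted p under 0.05 (edgeR) and open ones genes not called. Trarg1 (7.99 at day 8) and Tbc1d4 (5.58 at day 4) exceed all others against day 0, and Akt1 is below 0 in both panels with day 0.

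Set on a common scale of CPM per kilobase of exon, the order of the 9 genes changed with the day. At day 0 Akt1 led with a mean level of 144 CPM per kb, followed by Akt2 at 26.3, Pik3r1 at 6.64 and Insr at 2.20. Irs2 (1.60), Foxo1 (1.25) and Irs1 (1.15) followed, each overlapping its neighbour in this order, then Trarg1 at 0.629 and Tbc1d4 at 0.0844. At day 8 Trarg1 led with a mean level of 161 CPM per kb, above Akt2 at 80.4, Akt1 at 58.1 and Pik3r1 at 7.86, with no overlap between these 4. Foxo1 (4.94), Insr (4.10) and Irs2 (4.07) overlapped one another in turn, and Tbc1d4 (2.58) and Irs1 (0.493) came last. At day 4 Akt1 (82.3), Trarg1 (66.3) and Akt2 (63.3) overlapped in level, and Irs1 (0.813) was again the lowest.

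By Pearson correlation of log2 CPM over the 9 libraries, given as a description since all genes share these libraries and their large difference between days, the genes most like Trarg1 were 6430571L13Rik, Pex7 and Apoc1, and those most like Tbc1d4 were Slc16a10, Arhgef37 and Sort1. Akt2 was closest to Slc25a39, Sdhaf1 and Ppdpf, and Akt1 to Selenon, En1 and Arhgef25. Foxo1 was closest to Tmx2, Mavs and Mrpl46, Insr to Ap1g1, Stt3b and Met, Irs1 to Nfkb1, Lrch3 and Med12, Irs2 to Eif4a1, Pitpnm2 and Rbfa, and Pik3r1 to Cpeb2, Klhl2 and Dcun1d3. The coefficient of the closest gene ranged from 0.977 for Pik3r1 to 0.999 for Akt1.

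The rest of the pathway was described through 7 lists. Their counts are to be read against the share called over all genes tested, 54.6% at day 4 and 63.4% at day 8 against day 0. Of the receptor and docking protein list, 13 genes were tested, Insr, Irs1 and Irs2 among them; 6 were higher and 4 lower at day 4 than at day 0 (also without replicate 2 of day 4), and 6 higher and 5 lower at day 8 than at day 0. The median log2 fold change of the list was 0.02 at day 4 and −0.22 at day 8. Igf1r, the receptor for insulin-like growth factor 1 that can form hybrids with the insulin receptor, averaged 71.8 ± 6.06 CPM at day 0, 20.2 ± 12.4 CPM at day 4 and 12.0 ± 1.97 CPM at day 8 (SD, n = 3 each). It fell by 1.82 on the log2 scale at day 4 against day 0 (adjusted p = 0.00115, edgeR; −2.45 without replicate 2 of day 4) and by 2.58 at day 8 against day 0 (adjusted p = 0.000111, edgeR). Irs3, a docking protein of rodent fat cells, averaged 1.84 ± 0.510 CPM at day 0, 29.2 ± 4.87 CPM at day 4 and 34.0 ± 6.98 CPM at day 8, with log2 fold changes of 3.98 at day 4 and 4.20 at day 8 against day 0 (adjusted p = 8.56e-07 and 6.96e-07, edgeR; 4.11 at day 4 without replicate 2). Sh2b2, an adaptor of the insulin receptor, rose by 4.44 at day 4 (4.66 without replicate 2) and 4.24 at day 8. Irs4 had no count in any library.

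Of 10 tested phosphoinositide 3-kinase subunits, Pik3r1 included, 2 were higher and 5 lower at day 4, and 1 was higher and 6 lower at day 8, each against day 0; at day 4, 4 were called when replicate 1 of day 0 or replicate 1 of day 4 was left out and 6 when replicate 2 of day 4 was. The all-gene shares were 54.6% and 63.4%. The regulatory subunit gene Pik3r3 fell by 1.42 at day 4 and fell by 1.83 at day 8 on the log2 scale, and Pik3r2 fell by 1.25 at day 8, against day 0. Without replicate 2 of day 4, Pik3r3 stood at −1.36 at day 4. Among catalytic subunits, Pik3cb rose by 2.28 at day 4 (2.56 without replicate 2) and 2.33 at day 8. Pik3cd, known mainly from blood cells, fell by 2.03 at day 4 (−2.53 without replicate 2) and fell by 3.05 at day 8. Its later levels rest on few reads, 92 counts over the 3 libraries of day 4 and 48 over those of day 8. Pik3ca, the subunit most tied to insulin action, averaged 29.9 ± 3.38, 20.3 ± 1.70 and 22.5 ± 7.35 CPM at days 0, 4 and 8 (SD, n = 3 each). It fell by 0.56 at day 4 against day 0 (adjusted p = 0.0433, edgeR), a call lost when any 1 of the 6 libraries of these days was left out (−0.49, adjusted p = 0.0857, without replicate 2 of day 4). At day 8 against day 0 its log2 difference of −0.41 did not pass the test (adjusted p = 0.109, edgeR), though it did with total counts (−0.77, adjusted p = 0.00997).

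Of 8 AKT kinases and activators, Akt1 and Akt2 included, 4 were higher and 2 lower at day 4 (3 and 2 without replicate 2) and 2 higher and 2 lower at day 8, against day 0, beside 54.6% and 63.4% of all genes called. Mtor, the kinase of the complex that completes AKT activation, rose by 1.61 at day 4 (1.71 without replicate 2) and 1.60 at day 8. Rictor and Mapkap1, also in this list, did not share that rise. At days 0, 4 and 8 Rictor averaged 5.34, 4.72 and 6.17 CPM, and Mapkap1 60.8, 61.5 and 57.8 CPM. The rise of Mtor RNA therefore does not show that the complex increased. Pdpk1, which phosphorylates the activation loop of AKT, rose by 0.64 at day 4 (adjusted p = 0.00906, edgeR; 0.74 without replicate 2), a call lost with libraries scaled by total counts (0.30, adjusted p = 0.166).

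Of 17 genes that restrain insulin signalling, 1 was higher and 9 were lower at day 4 (2 and 9 without replicate 2), and 2 were higher and 10 lower at day 8, against day 0. Their median log2 fold change was −0.75 at day 4 and −0.60 at day 8, beside −0.01 and 0.03 over all genes, of which 26% were lower at day 4 and 29.9% at day 8. Enpp1, which inhibits the receptor, fell by 4.24 at day 4 and fell by 3.10 at day 8. Its later levels rest on few reads, 58 counts over the 3 libraries of day 4 and 138 over those of day 8. Socs3, which binds the receptor and its docking proteins, fell by 2.98 at day 4 and fell by 2.96 at day 8, and the receptor phosphatase Ptprf fell by 2.92 and fell by 2.99. Without replicate 2 of day 4 the day 4 values were −5.17 for Enpp1, −3.64 for Socs3 and −3.67 for Ptprf. Grb10, an adaptor that inhibits the receptor, fell by 0.75 at day 4 (−1.02 without replicate 2) and fell by 0.77 at day 8. Deptor, which binds and inhibits mTOR, rose by 1.52 at day 8 (adjusted p = 8.66e-05, edgeR). Ptpn1, a phosphatase acting on the receptor, fell by 0.58 at day 8 against day 0 (adjusted p = 0.0237, edgeR), a call lost without replicate 2 or replicate 3 of day 0 and without replicate 1 of day 8.

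Grb14 and Trib3 among the restrainers had a minimum at day 4. Grb14, an inhibitor of the receptor, averaged 30.0 ± 4.15 CPM at day 0, 7.82 ± 2.49 CPM at day 4 and 25.2 ± 5.24 CPM at day 8 (SD, n = 3 each). It fell by 1.94 at day 4 against day 0 (adjusted p = 0.000106, edgeR; −2.03 without replicate 2 of day 4) and rose by 1.69 at day 8 against day 4 (adjusted p = 0.00201, edgeR; 1.73 without it), and day 8 against day 0 did not pass the test (−0.25, adjusted p = 0.378). Trib3, a pseudokinase that binds AKT and a target of ATF4, averaged 179.8 ± 15.7, 49.7 ± 25.2 and 268 ± 61.5 CPM at days 0, 4 and 8, a fall of 1.86 at day 4 against day 0 (adjusted p = 0.00135, edgeR; −1.49 without replicate 2 of day 4) and a rise of 2.43 at day 8 against day 4 (adjusted p = 0.00202, edgeR; 2.01 without it).

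Of 15 substrates and effectors of AKT and mTORC1, Foxo1 included, 7 were higher and 2 lower at day 4 (8 and 3 without replicate 2) and 6 higher and 3 lower at day 8, against day 0, beside 54.6% and 63.4% of all genes called. The list's median log2 fold change was 0.23 at day 4 and 0.36 at day 8. Pde3b, the phosphodiesterase through which insulin lowers cyclic AMP and lipolysis in fat cells, rose by 4.44 at day 4 (4.79 without replicate 2) and 5.01 at day 8. Acly, the ATP citrate lyase of fatty acid synthesis, rose by 2.50 at day 4 (2.86 without replicate 2) and fell by 1.79 at day 8 against day 4 (adjusted p = 0.00618, edgeR; −2.20 without replicate 2 of day 4). The FOXO factors differed in direction at day 8 against day 0: Foxo4 rose by 0.66 (adjusted p = 0.000636, edgeR) and Foxo3 fell by 0.76 (adjusted p = 0.00384, edgeR), beside the rise of 1.98 in Foxo1. At day 0 the mean level of Foxo1, 1.25 CPM per kb, was below that of Foxo3, 7.33 CPM per kb, and of Foxo4, 8.66 CPM per kb, and at day 8 the 3 stood at 4.94, 4.34 and 13.7 CPM per kb in that order of names. Libraries of Foxo1 and Foxo3 overlapped on this scale at day 8.

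Of 26 GLUT4 vesicle cargoes, Rab proteins and tethers, Trarg1 and Tbc1d4 included, 7 were higher and 6 lower at day 4 (9 and 5 without replicate 2) and 10 higher and 3 lower at day 8, against day 0. The share called over all genes was 54.6% and 63.4%. The list's median log2 fold change was 0.07 at day 4 and 0.20 at day 8. Slc2a4 itself had 0.323, 0.259 and 0.296 CPM at day 0, 542, 151 and 459 CPM at day 4 and 385, 538 and 362 CPM at day 8. It stood at 8 to 12 counts per library at day 0, and replicate 2 of day 4 was the lowest of the later libraries. The log2 fold change was 10.33 at day 4 and 10.49 at day 8 against day 0 (adjusted p = 4.18e-07 and 4.26e-07, edgeR; 10.71 at day 4 without replicate 2), and 0.16 at day 8 against day 4 (adjusted p = 0.781; −0.28 without replicate 2 of day 4, adjusted p = 0.232). For Trarg1 the same comparison was called, and whether the 2 genes differ in it was not tested.

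Sort1, the sorting receptor sortilin of these vesicles, averaged 13.8 ± 2.18 CPM at day 0, 357 ± 57.3 CPM at day 4 and 242 ± 21.1 CPM at day 8 (SD, n = 3 each). Tbc1d1, the paralog of Tbc1d4 that is better known from muscle, moved the other way, with 41.4 ± 3.02 CPM at day 0, 20.9 ± 5.51 CPM at day 4 and 17.0 ± 2.14 CPM at day 8, a fall of 0.99 at day 4 and of 1.28 at day 8 on the log2 scale against day 0 (adjusted p = 0.00132 and 0.000189, edgeR; −1.22 at day 4 without replicate 2). Per kilobase, mean Tbc1d4 stood at 0.0844 beside 5.59 CPM per kb for Tbc1d1 at day 0, at 4.04 beside 2.82 at day 4 and at 2.58 beside 2.30 at day 8. Libraries of Tbc1d4 and Tbc1d1 overlapped on this scale at day 4 and at day 8. Rab10, the Rab protein on which TBC1D4 acts in fat cells, averaged 129 ± 9.90, 137 ± 8.58 and 149.9 ± 13.6 CPM at days 0, 4 and 8 and was called in no comparison. Lnpep, the vesicle aminopeptidase IRAP, rose by 0.73 at day 4 (adjusted p = 0.00667, edgeR; 0.85 without replicate 2), a call lost with total counts (0.40, adjusted p = 0.0897). The small GTPases Rhoq and Rala rose by 0.87 and 1.02 at day 8 against day 4 (0.79 and 0.88 without replicate 2 of day 4). Rhoq averaged 165, 77.1 and 141 CPM at days 0, 4 and 8, so its day 8 mean was still below that of day 0. Rala averaged 46.9, 43.7 and 88.8 CPM, with its day 8 mean above that of day 0.

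Slc2a1, the glucose transporter GLUT1 of most cell types and in no list here, had 104, 134 and 105 CPM at day 0, 103, 50.9 and 83.8 CPM at day 4 and 422, 356 and 263 CPM at day 8. The day 8 libraries were above all others. It rose by 1.60 at day 8 against day 0 (adjusted p = 0.000332, edgeR) and by 2.13 at day 8 against day 4 (adjusted p = 0.000749, edgeR; 1.85 without replicate 2 of day 4), and at day 4 against day 0 its log2 difference of −0.53 did not pass the test (adjusted p = 0.0995, edgeR; −0.29 without replicate 2), though it did with total counts (−0.88, adjusted p = 0.00868).

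**Figure D3:**
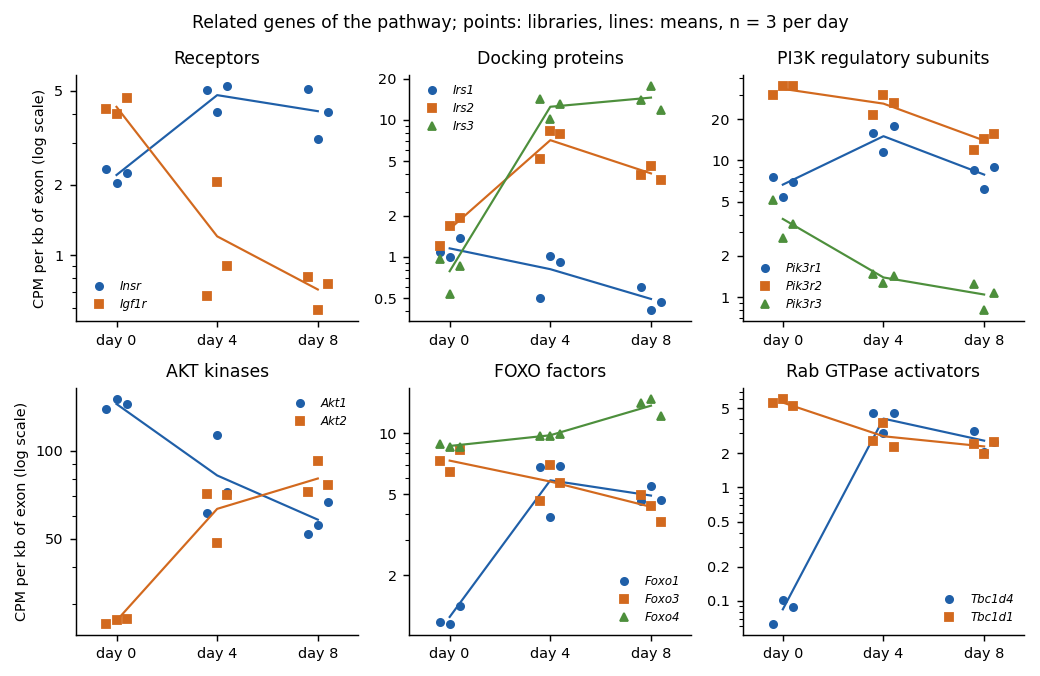
Related genes of the pathway by day, in CPM per kilobase of exon on log axes; points are single libraries (replicates 1 to 3 from left to right within a day), and lines join the means of 3 libraries. The mean levels of Insr and Igf1r, of Akt2 and Akt1, and of Tbc1d4 and Tbc1d1 change order between day 0 and day 8, with Irs3 the highest of Irs1, Irs2 and Irs3 at day 8 (14.6 CPM per kb). Single libraries of Tbc1d4 and Tbc1d1 overlap at day 8.

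**Figure D4:**
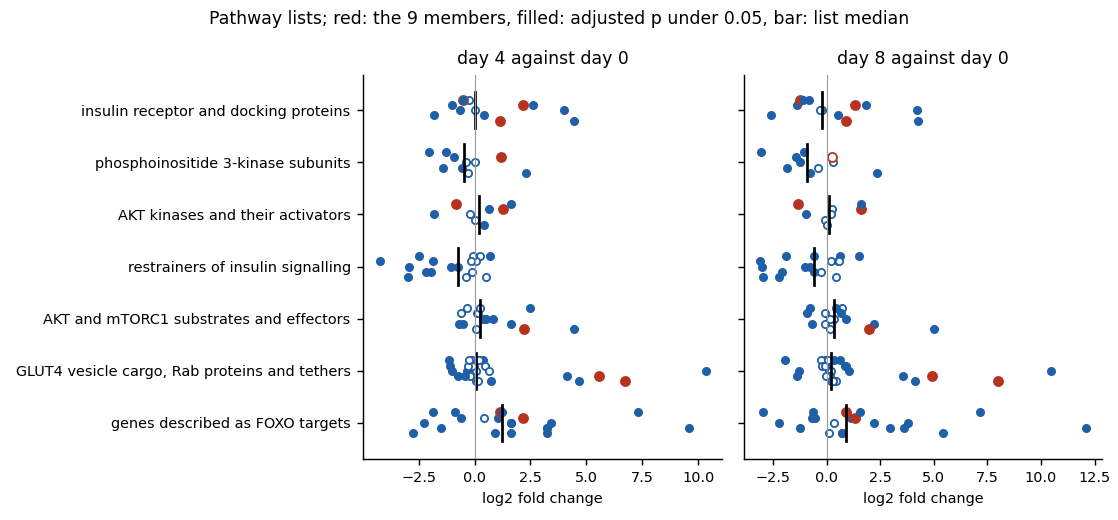
Log2 fold change of every tested gene of the 7 pathway lists, for day 4 against day 0 (left) and day 8 against day 0 (right); each point is a gene, red for the 9 genes described above, filled where the adjusted p was under 0.05, and a black bar marks the median of the list. The restrainers lie mostly below 0, with 9 of 17 called lower at day 4 and 10 of 17 at day 8, beside 26% and 29.9% of all genes tested. The genes described as FOXO targets lie mostly above 0. Of these, 14 of 21 were called higher at day 4 and 13 of 21 at day 8, beside 28.6% and 33.5% of all genes tested.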

How the data were processed

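RNA of the cleared lysate supernatant (cycloheximide and Triton X-100 buffer) was sequenced from TruSeq stranded, ribosome-depleted total RNA libraries, per the labels' protocols. The authors deposited raw counts per Ensembl gene with no normalization. The submitters' processing notes name HISAT2, the build GRCm39 and featureCounts, without versions; strand setting and annotation are not given in the sources used here. Of 55359 genes, 30671 had no count.

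The tools were edgeR 4.0.16 and DESeq2 1.42.0 under R 4.3.3. filterByExpr (minimum count 10, minimum total 15) kept 14649 genes. All 9 libraries entered 1 quasi-likelihood fit with TMM scaling, day as the only factor and 6 residual degrees of freedom, with two-sided F-tests and Benjamini-Hochberg adjustment over all genes tested. The biological coefficient of variation was 22.7%. Ratios of counts used a pseudocount of 0.5. Scripts were checked on simulated data. Libraries of 1 day differed by more than sampling noise (chi-square per degree of freedom 15.5 to 229), so all were kept. A floor of 3 counts was 0.0809 to 0.125 CPM, for counting error only. Exon lengths and overlaps came from GENCODE M21, of build GRCm38, and upstream sequences from RefSeq on GRCm38.p6.

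The members, pathway lists, markers and tests were chosen with earlier results of these data known. Genes named were the 9 members, 25 set genes of the pathway, up to 4 per list that changed most among the genes called in a comparison, and the 3 genes most like each member; some genes under this rule are not reported here. Alternatives were DESeq2, total counts, no filter, the replicate number as a block, only the libraries of the days compared, and each library left out; for the lists they were chosen after the data were seen.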

Additional observations from a re-analysis of the deposited data

How the results depend on the processing

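Against day 0, 8 of the 9 genes were called at day 4 in each of the 14 alternatives but total counts, which gave 9 by adding Irs1, and 8 were called at day 8 in each of the 14. The direction of Pik3r1 at day 8 against day 0 reversed with total counts (−0.11, adjusted p = 0.662). With total counts the all-gene median log2 fold change became −0.34 at day 4 and −0.33 at day 8, and all calls split into 3073 higher and 5631 lower at day 4 (4192 and 3806 with TMM) and 3632 and 6044 at day 8 (4913 and 4377). The list splits, higher and lower, then became 5 and 7 at both days for receptor and docking proteins. They became 2 and 2 at day 4 and 2 and 3 at day 8 for AKT kinases. Substrates and effectors had 5 and 4 at day 4 and 5 and 5 at day 8, and GLUT4 traffic 5 and 11, then 7 and 7. Phosphoinositide 3-kinase subunits had 2 and 7 at day 4 and 1 and 7 at day 8, and restrainers 0 and 9, then 1 and 10. Genes described as FOXO targets had 13 and 6 at day 4 and 11 and 6 at day 8. For day 8 against day 4, where 3 of the 9 were called, DESeq2 called 5, and omissions of a library gave 2 to 5; the cause was not tested. Calls of whole lists in that comparison also moved, and only named genes are reported from it. The log2 differences of the ratios at day 8 against day 0 ranged from 2.79 to 3.06 for Akt2 to Akt1 and from 2.37 to 2.77 for Irs2 to Irs1. Deviations of libraries with the same replicate number had r from −0.126 to 0.273, over 0.1 in 2 of 9 pairs. Those with different numbers had r from −0.224 to 0.188, over 0.1 in 2 of 18 pairs. Between day 0 and day 8 the same-number pairs gave 0.273, 0.138 and 0.0859, and no other pair exceeded 0.0366. These values do not settle whether the numbers pair the samples. The replicate block called 8, 8 and 3 of the 9 genes. It gave log2 differences of the ratios at day 8 against day 0 of 2.92 and 2.60. Their exact sign-flip p was 0.25, the smallest for 3 pairs. Depth limits little here except where fold changes rest on few reads. At day 0 this holds for Slc2a4, Tbc1d4, Trarg1 and Irs3, with 30, 65, 212 and 190 counts summed over 3 libraries. At the later days it holds for Enpp1 (58 counts at day 4 and 138 at day 8) and Pik3cd (92 and 48).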

Other observations

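Genes described as FOXO targets were described as 1 list: of 21 tested, Insr and Irs2 included, 14 were higher and 6 lower at day 4 (also without replicate 2 of day 4), and 13 higher and 6 lower at day 8, against day 0, beside 54.6% and 63.4% of all genes called. Over all genes tested, 28.6% were called higher and 26% lower at day 4, and 33.5% higher and 29.9% lower at day 8. The median log2 fold change was 1.24 at day 4 and 0.90 at day 8, beside −0.01 and 0.03 over all genes tested. Pnpla2, the adipose triglyceride lipase, averaged 30.4 ± 2.53 CPM at day 0, 4824 ± 877 CPM at day 4 and 4314 ± 630 CPM at day 8 (SD, n = 3 each), and rose by 7.31 and 7.15 on the log2 scale (adjusted p = 4.15e-08 and 4.45e-08, edgeR; 7.45 at day 4 without replicate 2). Cat, the peroxisomal catalase, rose by 3.24 at day 4 (3.38 without replicate 2) and 2.94 at day 8, and Bnip3, a mitochondrial autophagy receptor, by 3.44 (3.83 without replicate 2) and 3.80. These genes have other regulators too, Pnpla2 and Cat among them PPARγ, and FOXO1 activity was not measured.

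Among the genes described as FOXO targets, Pdk4, Gadd45a and Klf15 had unlike courses over the 3 days. Pdk4, which inhibits pyruvate dehydrogenase, averaged 9.54 ± 2.32, 89.3 ± 11.8 and 416 ± 158 CPM at days 0, 4 and 8 and rose by 2.22 at day 8 against day 4 (adjusted p = 0.00105, edgeR; 2.07 without replicate 2 of day 4). Gadd45a, a stress and growth arrest gene, averaged 51.9 ± 9.01, 7.59 ± 0.922 and 56.5 ± 9.04 CPM, a fall of 2.77 at day 4 against day 0 (adjusted p = 1.17e-06, edgeR; −2.84 without replicate 2 of day 4) and a rise of 2.90 at day 8 against day 4 (adjusted p = 5e-05, edgeR; 2.92 without it). Klf15, a glucocorticoid-responsive factor of fat cells, averaged 16.0 ± 3.30, 49.8 ± 7.20 and 20.3 ± 3.31 CPM, with a fall of 1.30 at day 8 against day 4 (adjusted p = 0.00177, edgeR; −1.43 without replicate 2 of day 4).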
